A study of Mus musculus with 6 samples.

Results

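The SoxF transcription factor genes and a set of arterial endothelial genes were followed in ligated inferior vena cavae of mice that lack STING in myeloid cells and of their controls. The set held Sox7, Sox17 and Sox18, the Notch genes Dll4, Notch4 and Hey1, the connexin genes Gja4 and Gja5, the claudin gene Cldn5 and the semaphorin gene Sema3g. They were found by gene symbol, and all 10 were present among the 16533 genes of the count tables. The 10 genes had been proposed after the genotype comparison of these libraries was known. Their differences between the genotypes are therefore given as a description and not as a test.

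The mKO mice were Stingf/f Lyzm-Cre+/-, and the control mice were Stingf/f, named WT in the sample titles. Both genotypes carried the loxP-flanked Sting1 alleles, and mKO mice alone carried Cre, so an effect of Cre itself cannot be told apart from the loss of STING. Cre expressed from the Lyz2 locus acts in neutrophils, monocytes and macrophages, not in endothelial cells. The vein had been ligated 24 h earlier in all mice to let a thrombus form, and each library was made from 3 thrombi with the surrounding vein pooled together. There were 3 mKO pools and 3 control pools, and the labels give no strain, sex or age. No unligated vein was analysed here, so the levels describe the thrombosed vein only.

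SoxF proteins are transcription factors of endothelial cells that act with Notch signalling when arterial identity is set up. In that pathway a Delta-like or Jagged ligand on one cell activates a Notch receptor on its neighbour, and the freed receptor fragment joins RBPJ on DNA to turn on genes such as those of the Hey family. The connexins of Gja4 and Gja5 couple arterial endothelial cells, and the claudin of Cldn5 seals the junctions between them. The vena cava is a vein, whose own endothelium is known for low levels of arterial genes such as Gja4 and Gja5. Low venous levels are not assumed for every gene of the set, since some are made in endothelium more broadly. The tissue around the vein holds arterioles and capillaries, and the vessel type behind each signal was not tested.

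Library totals ranged from 166083163 to 172223654 counts in mKO and from 158579864 to 180068483 counts in control. The 10 genes had between 144 and 5194 counts per library, so counting error was small for most of them. By edgeR quasi-likelihood, 0 of 16523 genes tested had an adjusted p under 0.05. At an unadjusted p under 0.05 there were 1034 lower genes and 926 higher genes in mKO. By DESeq2, 219 genes were lower and 242 higher at an adjusted p under 0.05, and limma voom called 0. Sting1 stood at 22.7, 21.4 and 28.7 CPM (counts scaled to a common depth with TMM factors) in mKO, against 25.1, 31.4 and 27.1 CPM in control, and the groups overlapped. A count over the whole gene in whole tissue does not show whether the alleles were cut in myeloid cells. Lyz2, whose locus carries Cre, had 642.5, 1149 and 1153 CPM in mKO, against 1430, 1759 and 1885 CPM in control. The third mKO library stood apart in its surrounding tissue, with 37.6 CPM of the muscle gene Ckm against 0.209 to 9.77 CPM elsewhere, and 0.152 CPM of the sympathetic neuron gene Th against 16.7 to 52.7 CPM elsewhere.

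Of the 10 genes, 4 had mKO libraries that all lay below all control libraries, namely Sox17, Notch4, Cldn5 and Sema3g, and 0 had all mKO libraries above. Over all genes tested, 9.39% were lower and 8.76% were higher in this sense. The count was 6 without the third mKO library, with Sox7 and Gja4 added, 5 without the first control library (Hey1 added) or the third (Gja5 added), and 4 without each of the others. Groups fail to overlap more easily when a library is left out. The share over all genes was not computed for these reduced sets, so the counts cannot be set against the shares above. By edgeR quasi-likelihood 0 of the 10 had an adjusted p under 0.05, as for 0% of all genes in either direction, and 4 had an unadjusted p under 0.05 with a lower level, against 6.26% of all genes with a lower level and 5.6% with a higher one. By DESeq2 3 of the 10 were lower at an adjusted p under 0.05 and 0 higher, against 1.33% and 1.47% of all genes. Nothing can be read from these shares, because the genes were chosen from this comparison. The median log2 fold change, mKO over control, was -0.53 over the 10 genes and -0.03 over all genes tested. The 10 genes did not move as a block: their log2 fold changes ran from -1.46 for Sema3g to 0.07 for Dll4.

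**Figure D1:**
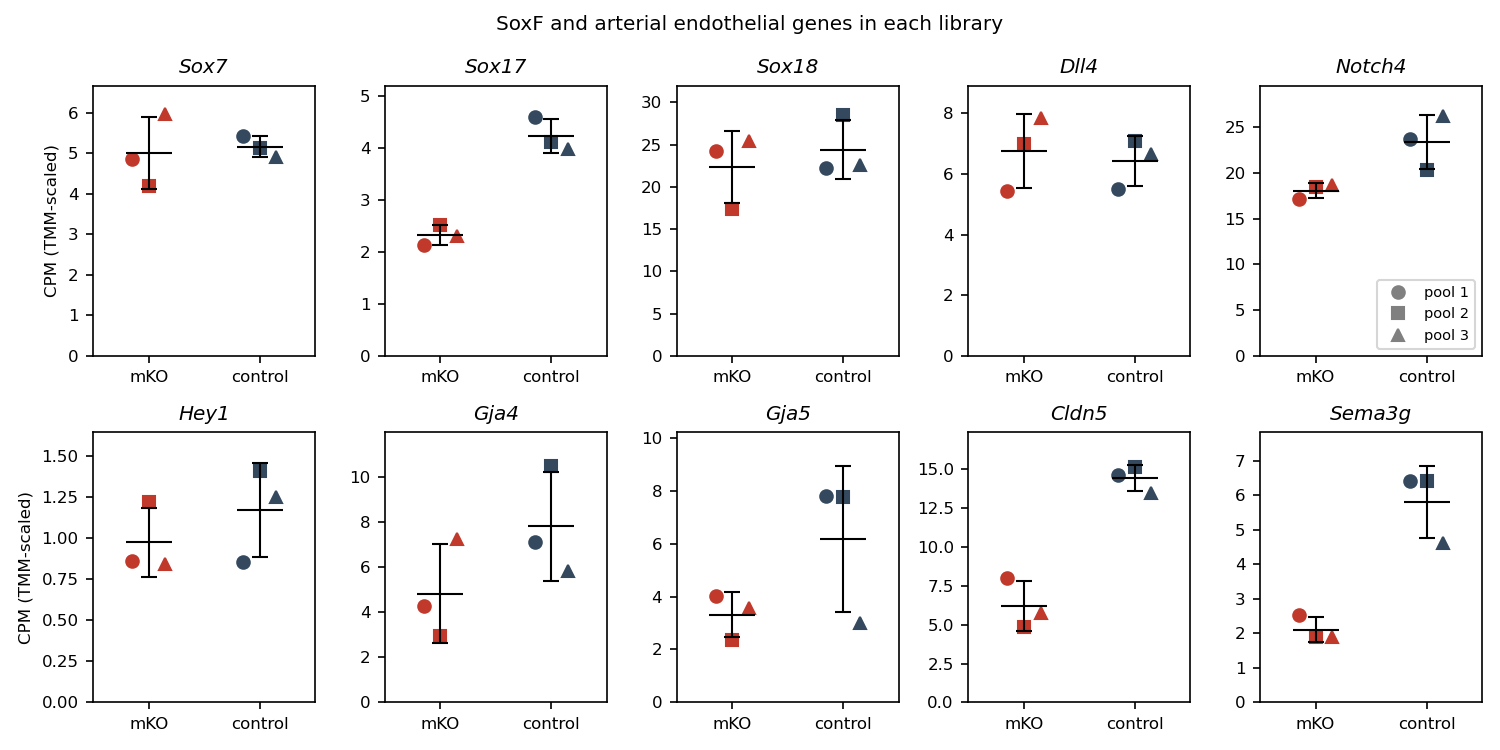
Level of each of the 10 genes in every library, in CPM after TMM scaling, with mKO pools in red on the left and control pools in dark blue on the right; the long bar is the mean and the whiskers the SD of 3 pools, and marker shape gives the pool number of the labels. Sox17, Notch4, Cldn5 and Sema3g show no overlap between the genotypes, whereas Sox7, Sox18, Dll4 and Hey1 overlap widely.

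Of the SoxF genes, Sox17 was the one whose genotypes did not overlap. Sox17 (ENSMUSG00000025902, chromosome 1), the member most tied to arterial endothelium, had 2.13, 2.52 and 2.32 CPM in the mKO libraries, against 4.60, 4.12 and 3.98 CPM in the control libraries. Both groups were tight and did not overlap, with means of 2.32 ± 0.194 CPM in mKO and 4.23 ± 0.324 CPM in control (SD, n = 3 each). Its log2 fold change came to -0.87 (SE 0.16), and ran from -0.93 to -0.80 on leaving out each library in turn. Sox7 (ENSMUSG00000063060, chromosome 14) had 4.85, 4.20 and 5.96 CPM in mKO, against 5.43, 5.13 and 4.91 CPM in control. The mKO libraries lay on both sides of the control libraries. Its log2 fold change was -0.044 (SE 0.16). Sox18 (ENSMUSG00000046470, chromosome 2), mutated in a mouse line with vascular and hair defects, had 24.3, 17.4 and 25.4 CPM in mKO, against 22.2, 28.5 and 22.6 CPM in control. Its groups overlapped as well, with a log2 fold change of -0.13 (SE 0.17). Without the second mKO library the signs turned, to 0.068 for Sox7 and 0.024 for Sox18.

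A share within each library does not depend on how libraries are scaled. Sox17 made up 6.82%, 10.4% and 6.89% of all SoxF counts in mKO, against 14.3%, 10.9% and 12.7% in control. The second mKO library came close to the second control library, and the groups did not overlap. Relative to Sox7, Sox17 had 0.439, 0.601 and 0.389 counts per count in mKO, against 0.847, 0.802 and 0.812 in control. All mKO ratios lay well below the control ratios.

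The Notch genes of the set showed no common direction. Dll4 (ENSMUSG00000027314, chromosome 2), the Notch ligand of arterial and sprouting endothelium, had 5.44, 6.98 and 7.83 CPM in mKO, against 5.51, 7.10 and 6.66 CPM in control. The groups covered the same range, and the log2 fold change of 0.072 (SE 0.17) turned negative without the third mKO library (-0.049) or the first control library (-0.027). Notch4 (ENSMUSG00000015468, chromosome 17), a receptor made mainly in endothelium, had 17.1, 18.5 and 18.6 CPM in mKO, against 23.7, 20.3 and 26.2 CPM in control. Its groups did not overlap, but the gap between the highest mKO library and the lowest control library was small. Its means were 18.1 ± 0.843 CPM in mKO and 23.4 ± 2.96 CPM in control (SD, n = 3 each), with a log2 fold change of -0.37 (SE 0.12). Hey1 (ENSMUSG00000040289, chromosome 3), a target of Notch, rested on 144 to 257 counts per library, with 0.861, 1.22 and 0.843 CPM in mKO, against 0.855, 1.41 and 1.25 CPM in control. The first control library was as low as the mKO libraries. The log2 fold change was -0.27 (SE 0.28), and it was 0.059 when scaled to endothelial counts as described further on. Notch4 relative to Dll4 stood at 3.14, 2.65 and 2.38 counts per count in mKO, against 4.30, 2.86 and 3.93 in control, and these ratios overlapped.

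The connexin genes had lower means in mKO, but each had a library that overlapped the other group. Gja5 (ENSMUSG00000057123, chromosome 3) had 4.01, 2.36 and 3.58 CPM in mKO, against 7.78, 7.76 and 2.98 CPM in control. The first and second control libraries stood high, and the third lay within the mKO range. The log2 fold change was -0.90 (SE 0.39), and ran from -1.23 without the third control library to -0.69 without the first. In the GENCODE M21 annotation the Gja5 gene overlaps Gpr89 on the opposite strand. Gpr89 had a log2 fold change of -0.26, and because the strand setting of the counts is not given, reads over shared bases cannot be told apart. Gja4 (ENSMUSG00000050234, chromosome 4) had 4.28, 2.93 and 7.23 CPM in mKO, against 7.13, 10.5 and 5.80 CPM in control. The third mKO library, the one rich in muscle transcripts, lay above 2 control libraries. The log2 fold change was -0.70 (SE 0.37), -1.11 without the third mKO library and -0.43 without the second control library. Gja5 per Gja4 count stood at 0.937, 0.806 and 0.496 in mKO, against 1.09, 0.740 and 0.514 in control, so the ratio of the connexins overlapped between the genotypes.

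The widest gaps lay in Cldn5 and Sema3g. Cldn5 (ENSMUSG00000041378, chromosome 16), the main claudin of endothelial tight junctions, had 7.99, 4.82 and 5.78 CPM in mKO, against 14.6, 15.1 and 13.5 CPM in control. Every mKO library lay far below the control libraries. The coefficient of variation was 26.2% among the mKO libraries and 5.83% among the control libraries. The means were 6.19 ± 1.63 CPM in mKO and 14.4 ± 0.839 CPM in control (SD, n = 3 each), with a log2 fold change of -1.22 (SE 0.19). Sema3g (ENSMUSG00000021904, chromosome 14), a secreted semaphorin of arterial endothelium, had 2.53, 1.90 and 1.89 CPM in mKO, against 6.42, 6.41 and 4.61 CPM in control. Its groups were apart by a wide margin, with means of 2.11 ± 0.363 CPM in mKO and 5.81 ± 1.04 CPM in control (SD, n = 3 each). Its log2 fold change of -1.46 (SE 0.20) was the lowest of the 10 and ranked 54 from the lowest among the 16523 genes tested. By edgeR quasi-likelihood, adjusted over all genes, the adjusted p was 0.134 for Sema3g, 0.142 for Cldn5 and 0.176 for Sox17, and 0.317 to 0.920 for the others. By DESeq2 these same 3 genes had adjusted p-values under 0.05: 1.14e-07 for Sema3g, 5.30e-06 for Cldn5 and 2.59e-04 for Sox17.

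Levels can be compared between genes only per length, here as CPM per kb of merged exons in GENCODE M21. On this scale Sox18 was highest in both genotypes, at 13.8 ± 2.66 in mKO and 15.1 ± 2.18 in control (SD, n = 3 each), and stood apart from Cldn5, the next, at 4.37 ± 1.15 in mKO and 10.2 ± 0.593 in control. Gja4, Notch4, Dll4 and Sox7 followed in that order in both genotypes. Dll4 and Sox7 were not apart from each other in either genotype, and in mKO neither Cldn5 from Gja4 nor Gja4 from Notch4. The lower end differed in order. In control, Sema3g (1.28 ± 0.229) came before Gja5 (1.07 ± 0.481) and Sox17 (0.887 ± 0.0679), whereas in mKO Gja5 (0.578 ± 0.149) and Sox17 (0.487 ± 0.0406) came before Sema3g (0.464 ± 0.0799), with overlapping libraries between each of these neighbours in both genotypes. Hey1 was last in both, at 0.298 ± 0.0647 in mKO and 0.359 ± 0.0876 in control.

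Promoter sequences were taken from RefSeq (build GRCm38.p6, an earlier build than that of the counts), which held 6 of the 10 genes: Dll4, Notch4, Gja4, Gja5, Cldn5 and Sema3g. The 250 bases before the start are shown for Cldn5 and Sema3g, the genes with the widest gaps, and for Gja4 and Notch4, which hold the SOX core. Each is written 5′ to 3′ on the strand of its gene. Capitals mark exact matches, on either strand, to the SOX core ACAAT, the ETS core GGAAG or the KLF core CACCC.
Cldn5, chr16:18776597-18776846, plus strand: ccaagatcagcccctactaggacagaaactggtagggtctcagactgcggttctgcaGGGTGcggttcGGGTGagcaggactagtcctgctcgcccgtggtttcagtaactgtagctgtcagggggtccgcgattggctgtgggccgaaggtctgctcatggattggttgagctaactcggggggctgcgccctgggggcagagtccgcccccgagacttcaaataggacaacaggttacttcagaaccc
Sema3g, chr14:31217623-31217872, plus strand: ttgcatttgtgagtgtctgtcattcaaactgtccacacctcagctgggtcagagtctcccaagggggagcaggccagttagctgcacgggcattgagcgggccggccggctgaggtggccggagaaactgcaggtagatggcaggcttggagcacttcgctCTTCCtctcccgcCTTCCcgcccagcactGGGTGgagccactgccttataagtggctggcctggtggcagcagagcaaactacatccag
Gja4, chr4:127314040-127314289, minus strand: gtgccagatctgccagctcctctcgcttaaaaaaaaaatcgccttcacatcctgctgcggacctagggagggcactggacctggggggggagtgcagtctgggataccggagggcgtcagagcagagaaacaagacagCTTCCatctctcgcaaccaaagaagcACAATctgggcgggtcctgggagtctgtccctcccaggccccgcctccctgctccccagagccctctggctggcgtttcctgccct
Notch4, chr17:34564045-34564294, plus strand: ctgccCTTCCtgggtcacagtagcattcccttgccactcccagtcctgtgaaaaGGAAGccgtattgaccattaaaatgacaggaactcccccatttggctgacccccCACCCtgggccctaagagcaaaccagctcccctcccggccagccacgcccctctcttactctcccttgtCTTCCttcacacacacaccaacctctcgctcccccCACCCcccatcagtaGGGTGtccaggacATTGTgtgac
The SOX core was found at -86 in Gja4 and at -10 in Notch4, that is in 2 of the 6 windows, and in 27.7% of 32851 promoter windows of the same length. The ETS core was in 5 of 6 windows, all but Cldn5, and in 64.1% of all windows. The KLF core was in 5 of 6, all but Gja4, and in 52% of all windows. The RBPJ core TGGGAA, which shares its last letters with the start of the ETS core, was in 0 of 6 and in 21.6% of all windows. Cldn5 and Sema3g, with the largest differences, held no SOX or RBPJ core in these windows. Such matches are short and frequent, and say nothing on whether a factor binds there.

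Genes made by endothelium of all kinds were measured beside the set. A list of 24 pan-endothelial genes, which holds none of the 10, had a negative log2 fold change in all 24, with a median of -0.30; 6 had an unadjusted p under 0.05, all lower, and 0 passed the adjusted threshold by edgeR quasi-likelihood. Their summed level was 1021, 899.9 and 1123 CPM in mKO, against 1241, 1398 and 1110 CPM in control. The second mKO library was lowest and the third control library lay below the third mKO library, so the groups overlapped. The median was -0.13 without the second mKO library and -0.16 without the second control library. In bulk tissue, fewer endothelial cells and less of a transcript per endothelial cell cannot be told apart. What blood cells of the thrombus add to the counts of this list, Pecam1 included, was not tested. Among the named genes of the list, Ramp2, an adrenomedullin co-receptor, had 25.4 ± 4.80 CPM in mKO and 53.1 ± 5.07 CPM in control (SD, n = 3 each), Emcn, the endothelial sialomucin endomucin, stood at -0.49 (SE 0.14) on the log2 fold change scale, and Esam, an endothelial adhesion molecule, at -0.47 (SE 0.15). Pecam1, with the highest CPM of the list, had -0.24 (SE 0.14). By DESeq2, 2 of the 24, Ramp2 and Emcn, were lower at an adjusted p under 0.05.

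Counts of the 10 genes were therefore also set against the summed counts of the pan-endothelial list in the same library. Per 1000 pan-endothelial counts, Sema3g had 2.47, 2.12 and 1.68 in mKO, against 5.17, 4.58 and 4.15 in control. Cldn5 had 7.82, 5.35 and 5.14 in mKO, against 11.8, 10.8 and 12.1 in control. Sox17 had 2.09, 2.80 and 2.06 in mKO, against 3.71, 2.95 and 3.59 in control. These 3 genes remained below control in every mKO library on this scale, although for Sox17 the second mKO and second control libraries were close. Sox7 had 4.76, 4.66 and 5.30 in mKO, against 4.38, 3.67 and 4.42 in control, and so lay above control in every library. The other 6 genes overlapped, Notch4 among them, at 16.8, 20.5 and 16.6 in mKO against 19.1, 14.5 and 23.6 in control. Fitted with this scaling, the log2 fold change was -1.15 for Sema3g, -0.92 for Cldn5, -0.57 for Gja5, -0.56 for Sox17, -0.41 for Gja4 and -0.09 for Notch4. It was above 0 for Hey1 (0.059), Sox18 (0.17), Sox7 (0.24) and Dll4 (0.37), of which Hey1, Sox18 and Sox7 were negative with TMM scaling. The median of all genes moved to 0.27 with this scaling, and edgeR quasi-likelihood called 0 of the 10.

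**Figure D2:**
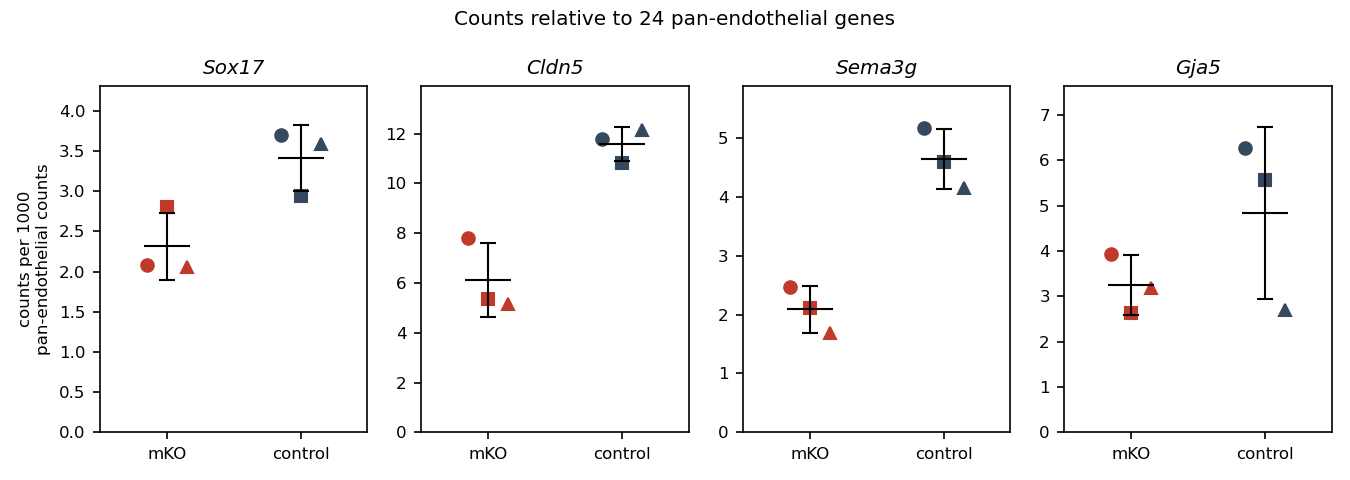
Counts of Sox17, Cldn5, Sema3g and Gja5 per 1000 summed counts of 24 pan-endothelial genes in the same library, for mKO (red, left) and control (dark blue, right); bars give the mean and SD of 3 pools and marker shape the pool number. Sox17, Cldn5 and Sema3g stay below control in all mKO libraries, whereas the third control library of Gja5, at 2.69, lies within the mKO range of 2.63 to 3.93.

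**Figure D3:**
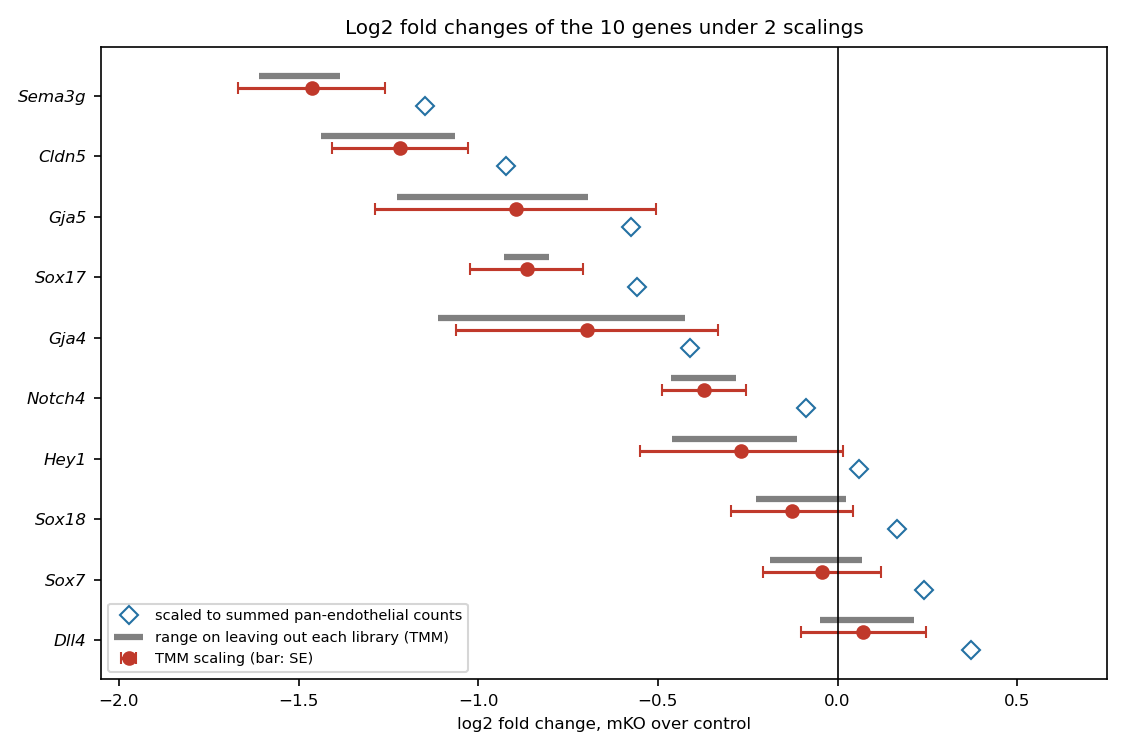
Log2 fold change, mKO over control, of each of the 10 genes with TMM scaling (red, with SE), its range on leaving out each library in turn (grey) and its value scaled to pan-endothelial counts (open blue diamonds). Sema3g, Cldn5, Gja5, Sox17, Gja4 and Notch4 lie below 0 in all of these, and Hey1, Sox18, Sox7 and Dll4 lie on both sides of 0.

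Other genes of arterial endothelium were looked at for comparison. Of 13 listed, 3 were lower and 1 higher at an unadjusted p under 0.05, and 0 passed the adjusted threshold by edgeR quasi-likelihood or DESeq2. Their median log2 fold change was -0.34, and -0.20 without the second mKO library. Scaled to pan-endothelial counts this median was -0.05, where that of all genes was 0.27. Hey2, the Hey factor most tied to arteries, averaged 2.40 ± 0.547 CPM in mKO and 4.76 ± 2.04 CPM in control (SD, n = 3 each). Efnb2, the arterial ephrin ligand, had 5.25, 5.24 and 5.77 CPM in mKO, against 6.39, 7.88 and 7.23 CPM in control. Gkn3, a marker of arterial endothelium in the mouse, was scarce, with 0.220, 0.131 and 0.0761 CPM in mKO, against 0.365, 0.389 and 0.445 CPM in control. In all 3 genes the groups did not overlap and mKO was lower, but they were named for the smallest p of the list. Of the 13 genes, 5 had all mKO libraries below control and 1 had all above, against 9.39% and 8.76% of all genes. Nothing can be read from these counts, because the list was chosen with earlier results known. Cxcr4, a chemokine receptor that leukocytes also carry, was higher, with 437.8 ± 112 CPM in mKO and 276.0 ± 51.2 CPM in control (SD, n = 3 each).

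The rest of the Notch pathway did not share a direction. Of 28 genes outside the set, 3 were lower and 3 higher at an unadjusted p under 0.05, 0 passed the adjusted threshold by edgeR quasi-likelihood, and the median log2 fold change was 0.06. Hey2 and Jag1 are also among the other arterial genes above, and Hey2 is counted as lower in both lists. The ligand Jag2 had 2.29, 1.98 and 2.03 CPM in mKO, against 3.26, 3.75 and 2.78 CPM in control. The lower genes were Jag2 (-0.63, SE 0.18), Hey2 (-0.99, SE 0.32) and the Notch target Nrarp (-0.53, SE 0.22), the last named after its value was seen. The higher ones were the receptor-cleaving protease Adam17 (0.44, SE 0.12), the only one of the 28 called by DESeq2 (adjusted p 0.0199), Rbpj (0.44, SE 0.14), the DNA-binding partner of Notch with the highest CPM of the 28, and the glycosyltransferase Lfng (0.54, SE 0.18), named after its value was seen. Adam17, Rbpj and Lfng are made in leukocytes as well.

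Other members of the same gene families were counted next. Of 9 other Sox genes in the tables, 0 had an unadjusted p under 0.05; Sox4, the most abundant by CPM, had a log2 fold change of -0.022 (SE 0.23). Of 5 other connexin genes, Gjc1, of smooth muscle, was lower at -0.64 (SE 0.20), while Gja1, the one with the most counts, had 0.058 (SE 0.11). Of 14 other tight junction genes 3 were lower and 0 higher at an unadjusted p under 0.05: F11r, a junctional adhesion molecule, at -0.32 (SE 0.10), Cldn12 at -0.32 (SE 0.12) and the scarce Cldn4 at -1.27 (SE 0.42). Cldn1 was higher in its mean, at 0.63 (SE 0.30), with groups that overlapped. Of 16 class 3 semaphorins, neuropilins and plexins, 4 were lower and 1 higher at an unadjusted p under 0.05. Sema3a, a repellent of axons, had 1.73, 1.41 and 1.69 CPM in mKO, against 3.26, 4.54 and 3.78 CPM in control, and Sema3d had 1.98, 1.48 and 1.58 CPM in mKO, against 3.29, 4.03 and 3.19 CPM in control. In both the groups did not overlap, and both were called by DESeq2, but they were named for the smallest p of that list. Of the 16 genes, 4 had all mKO libraries below control and 1 had all above, against 9.39% and 8.76% of all genes. The plexin Plxnc1 was higher, at 0.34 (SE 0.12). By edgeR quasi-likelihood 0 genes of these 4 lists passed the adjusted threshold.

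**Figure D4:**
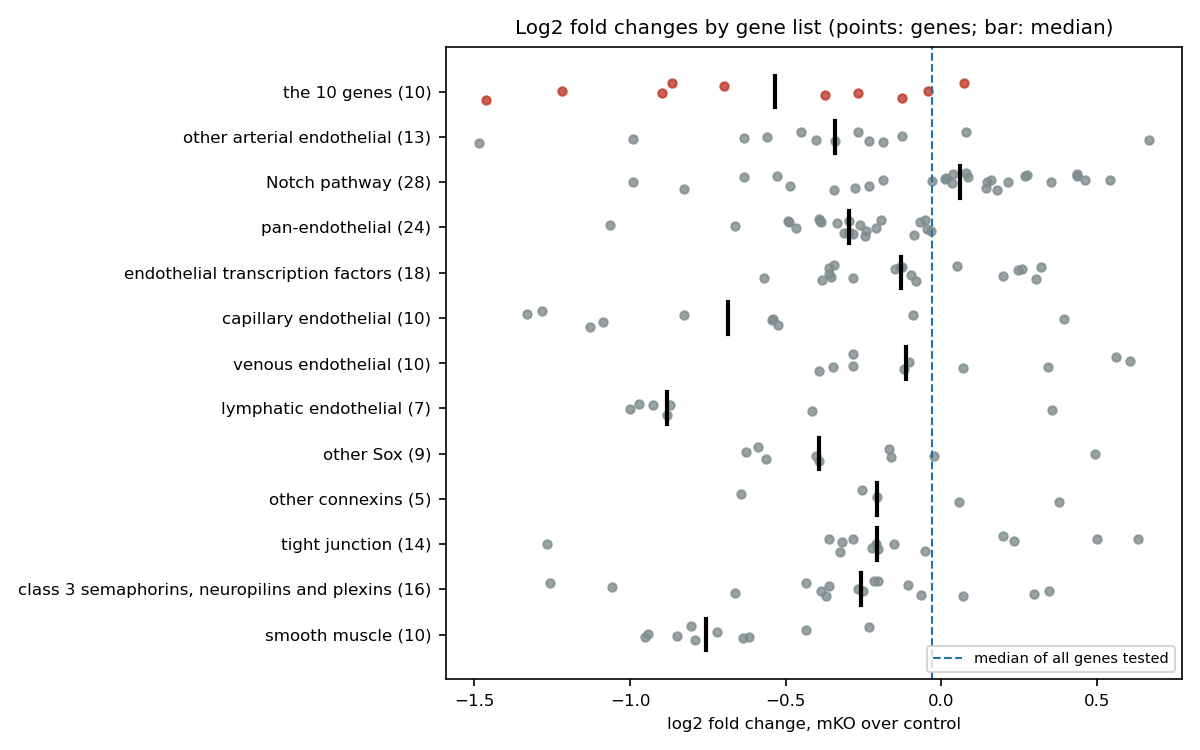
Log2 fold changes, mKO over control, of the 10 genes (red) and of 12 lists of other genes (grey), with the number of genes tested in brackets; the black bar is the median of each list and the dashed line that of all genes tested. The 10 genes spread from -1.46 to 0.07, and the Notch pathway spreads on both sides of 0.

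Transcription factors that act upstream of or beside SoxF in endothelium differed little as a list, with log2 fold changes from -0.57 to 0.32. Of 18 listed, 1 was lower and 2 higher at an unadjusted p under 0.05, with 0 past the adjusted threshold by edgeR quasi-likelihood or DESeq2 and a median log2 fold change of -0.13. Gata2 was lower at -0.38 (SE 0.14), and Hhex (0.32, SE 0.12) and the ETS factor Elk3 (0.26, SE 0.10) were higher. The shear-responsive factor Klf2 had 133.7, 111.2 and 100.4 CPM in mKO, against 104.0, 84.1 and 91.5 CPM in control, and the groups overlapped.

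Markers of other endothelium and of surrounding cells were also measured. Of 10 capillary markers 5 were lower at an unadjusted p under 0.05 and 0 higher, with a median log2 fold change of -0.68 and a summed level of 65.6 to 83.3 CPM in mKO and 83.4 to 90.4 CPM in control. Gpihbp1, which carries lipoprotein lipase on capillaries, had 7.93, 4.56 and 5.77 CPM in mKO, against 11.2, 11.6 and 9.60 CPM in control, and Btnl9 stood at -1.09 (SE 0.22) in log2 fold change. DESeq2 called 2 of the 10 capillary markers, Gpihbp1 and Btnl9, both lower. Of 7 lymphatic markers 5 were lower and 1 higher, with a median of -0.88; Flt4, the receptor of VEGF-C, had 6.10 CPM in mKO and 11.2 CPM in control on average. DESeq2 called 4 of the 7 lymphatic markers, all lower. Of 10 venous markers 0 had an unadjusted p under 0.05, and the median was -0.11, with a summed level of 839.2 to 963.6 CPM in mKO and 921.2 to 1088 CPM in control. Selp, the adhesion receptor P-selectin, which platelets also carry, had the smallest p of the list by edgeR quasi-likelihood. It averaged 143.0 CPM in mKO and 112.9 CPM in control, with groups that did not overlap. The venous sum rested largely on Selp, Lrg1 and Vwf. Lrg1 averaged 338.3 CPM in mKO and 367.6 CPM in control, and Vwf 267.9 and 341.1 CPM. What blood cells add to this sum was not tested.

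Of 10 smooth muscle markers 1 was lower at an unadjusted p under 0.05, and the median was -0.76, with -1.22 without the third mKO library and -0.20 without the second control library. Their summed level was 1108, 831.8 and 1730 CPM in mKO, against 1647, 3440 and 1432 CPM in control, so the second control library stood far above the rest. Of 6 pericyte markers 0 had an unadjusted p under 0.05, with 148.9 to 366.0 CPM in mKO and 154.4 to 304.4 CPM in control. Of 8 adipocyte markers 5 were lower, with a median of -0.60 and 382.3 to 555.6 CPM in mKO against 686.8 to 819.9 CPM in control. DESeq2 called 3 of the 8, all lower, and the summed adipocyte levels did not overlap between the genotypes. Skeletal muscle markers summed to 3.67 to 176.1 CPM in mKO and 3.02 to 49.0 CPM in control, and sympathetic neuron markers to at most 240.4 CPM in mKO, with 159.5 CPM in the first pool and almost none in the third, and to 127.4 to 329.1 CPM in control. Of the skeletal muscle markers, Myh4 and Myh1 were at 0 in at least 1 library. The part of these other cells in the levels of the 10 genes was not tested.

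Of the blood cell lists, platelet markers (7 genes, median -0.47) summed to 2860 to 4299 CPM in mKO and 3795 to 5625 CPM in control, and 1 was lower at an unadjusted p under 0.05. The platelet median was -0.78 without the second mKO library and -0.28 without the first. Neutrophil markers (7 genes, median 0.41) summed to 13555 to 18694 CPM in mKO and 9485 to 15240 CPM in control, with 1 higher, and their median was 0.22 without the second control library and 0.24 without the second mKO library. Macrophage markers (7 genes, median 0.07) summed to 531.8 to 710.9 CPM in mKO and 449.6 to 505.9 CPM in control, with 1 higher. The macrophage median had no stable sign: it was -0.32 without the first mKO library, 0.37 without the second and 0.23 without the third. Red cell markers (7 genes, median 0.26) summed to 238898 to 284887 CPM in mKO and 200914 to 259028 CPM in control, with 3 higher. That sum is mostly globin, and the median was 1.06 with globin and mitochondrial genes left out and 0.56 with scaling to pan-endothelial counts. DESeq2 called 1 neutrophil, 1 macrophage and 2 red cell markers, all higher, and 0 platelet markers.

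**Figure D5:**
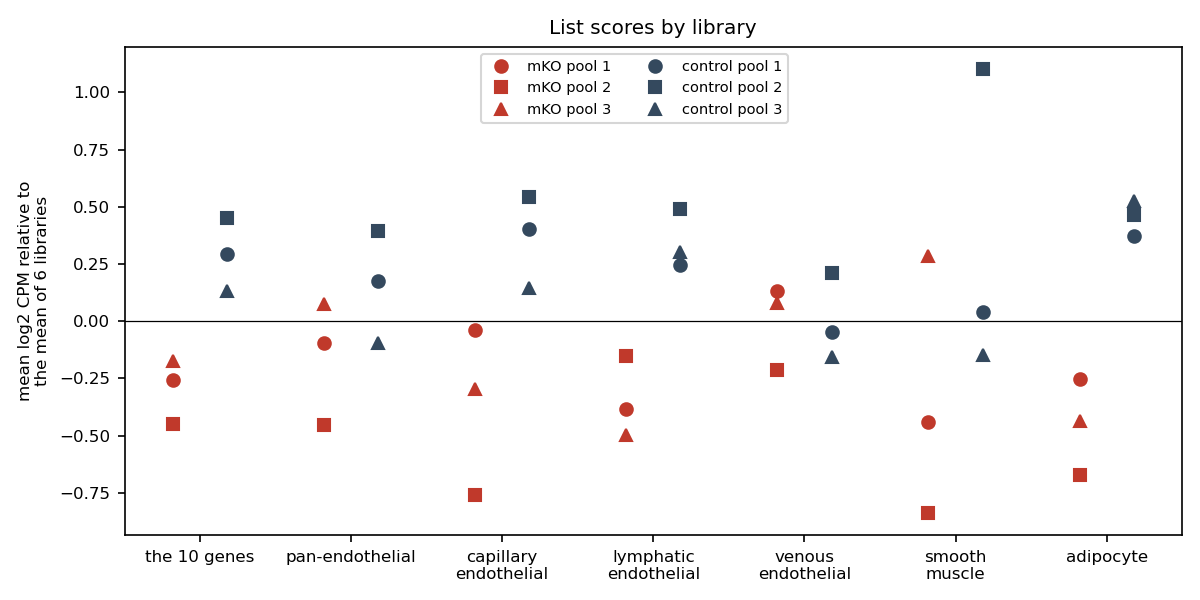
Mean log2 CPM of each list relative to its mean over the 6 libraries, for mKO (red, left) and control (dark blue, right) pools. The 10 genes, the capillary, lymphatic and adipocyte lists have mKO libraries that all lie below control, while the pan-endothelial, venous and smooth muscle lists overlap; for the 10 genes this follows in part from how they were chosen.

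Of the lists not drawn in that plot, the other arterial genes also had mean levels that all lay below control, at -0.122, -0.320 and -0.125 in mKO against 0.195, 0.312 and 0.059 in control. So did the class 3 semaphorins, neuropilins and plexins, at -0.14, -0.20 and -0.11 in mKO against -0.012, 0.32 and 0.14 in control. The mean profile of the 10 genes, as log2 CPM relative to each gene's mean, was -0.26, -0.45 and -0.18 in the mKO libraries and 0.30, 0.45 and 0.13 in the control libraries. The second mKO library was the lowest for 5 of the 10 genes and the third control library the lowest control for 6. Among non-member genes with a mean of at least 1 CPM, genes with the nearest profiles over these 6 libraries, by root mean square difference on the log2 scale, included Zhx3 (0.032), Epn2 (0.049), Fam126b (0.051), Kank3 (0.059), Zfp651 (0.069), C1qtnf9 (0.071), Enpp4 (0.074), Pls3 (0.074) and H2-T22 (0.076). Zhx3, the nearest, had 7.85, 6.54 and 8.16 CPM in mKO, against 11.2, 13.1 and 9.95 CPM in control. Of the 10 genes themselves, Sox17 lay nearest to the mean profile (0.22) and Sema3g farthest from it (0.47). The count of H2-T22 is uncertain, since near copies of it exist in the genome.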

How the data were processed

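The deposited tables, 1 per library, hold unnormalized read counts by gene. Per the labels' protocols, RNA was selected by its poly(A) tail and read from both ends on a DNBSEQ T7. The submitters' processing notes name, without roles, featureCounts 2.0.1, HISAT2 2.1.0, Trim Galore 0.4.0, FastQC 0.11.8 and genome build GRCm39. No source used here gives the annotation or strand setting. The tables held 16533 genes.

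The test was the quasi-likelihood F-test of edgeR 4.0.16, run in R 4.3.3 (TMM factors, robust fit, default expression filter, 16523 genes), with Benjamini-Hochberg adjustment over all genes and a threshold of 0.05. Standard errors are those implied by the F-test. CPM were computed from the counts and TMM-scaled totals. The p-values set the difference between genotypes against the spread between pools, with information on spread shared across genes. Variation between single mice within a pool was not measured. No pair of replicate libraries agreed within sampling noise. Alternatives were DESeq2 1.42.0, limma 3.58.1 voom, other scalings and filters, a replicate block and leaving out each library. The fits were tested on simulated data.

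The 10 genes and the 20 comparison lists were chosen with earlier results of these data known. The lists are not fully separate: Hey2, Jag1, Nrp1, Nrp2 and Nr2f2 are each counted in more than a single list. Named genes were all members, up to 3 genes of each list with the smallest p and the most abundant one, and the 10 nearest profiles, computed with an offset of 0.01 CPM, of which some are not reported here. Exon lengths and overlaps came from GENCODE M21 (GRCm38), matched by gene ID to 16492 genes.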

Additional observations from a re-analysis of the deposited data

How the results depend on the processing

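By edgeR quasi-likelihood, 0 genes passed under TMM, RLE or upper-quartile scaling, under each filter, without globin and mitochondrial genes, and by limma voom. DESeq2 called 461 genes, 3 of them among the 10 (Sox17, Cldn5 and Sema3g). Scaling to pan-endothelial counts called 8 genes, all higher, and moved the median log2 fold change of the 10 to -0.25, while that of all genes moved from -0.03 to 0.27, since this scaling shifts every gene. On leaving out each library in turn, 0 to 7 genes passed (4 without the third mKO library, 7 without the first control library, 2 without the third). In these fits 0 of the 10 passed, and the median of the 10 ran from -0.63 to -0.45. Of the 10, 4 to 6 then had groups that did not overlap, a count added after seeing the data that was 3 with pan-endothelial scaling. The share over all genes was not computed for either of these settings, so nothing can be read from the counts. Signs turned for Sox7 (0.24), Sox18 (0.17) and Hey1 (0.059) with pan-endothelial scaling. On leaving out each library, Sox7 ran from -0.19 to 0.068 and Sox18 from -0.23 to 0.024, both above 0 without the second mKO library, and Dll4 from -0.049 to 0.21, below 0 without the third mKO library or the first control library (-0.027); the cause was not tested. With pan-endothelial scaling the list medians of the venous genes (0.19), transcription factors (0.17), tight junction genes (0.10), other connexins (0.08) and semaphorins (0.03) were also above 0. Sox17, Notch4, Gja4, Gja5, Cldn5 and Sema3g kept a negative log2 fold change in all 15 alternatives run.

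Same-numbered libraries of the 2 genotypes did not deviate together (correlations of -0.114, -0.272 and -0.321 across genes). Differently numbered libraries had correlations from -0.05 to 0.345, the highest between the second mKO and the third control library. No pairing by number was seen, but such correlations cannot show whether same-numbered pools were handled together. With the replicate block, 0 genes and 0 of the 10 passed, and the median of the 10 was -0.56. Of the 10 genes, Hey1 rested on the fewest counts, 144 to 257 per library.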
